A study of Mus musculus with 4 samples.

Results

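The 38 genes described here code for the noncollagen part of the extracellular matrix and were measured in mouse ventricle. They were picked by symbol, from a list of matrix glycoproteins, proteoglycans, elastic fibre proteins and crosslinking enzymes, and all 38 of 38 were found among the 23352 gene symbols of the deposited table, each on a single row. The series compared hearts that overexpress Cdk8, the kinase of the Mediator complex, with wild-type hearts. There were 2 libraries from ventricles with cardiac-specific Cdk8 overexpression (Cdk8Tg) and 2 from wild-type ventricles (WT), all from male mice on the C57BL/6 background at postnatal day 21, with polyadenylated RNA. The sources used here name neither the transgene's promoter nor its founder line. Nothing in the labels ties a library to its own mouse, so the p-values reflect the spread among these 4 libraries, part of which may be technical.

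The noncollagen matrix surrounds the collagen fibres of the heart and sets how stiff and elastic the tissue is. Elastic fibres are built of elastin laid on a scaffold of fibrillin microfibrils, with fibulins and microfibril-associated proteins holding the parts together, and lysyl oxidases crosslink both elastin and collagen. Small leucine-rich proteoglycans bind collagen fibrils and limit their width, and versican fills the space between cells. Matricellular proteins such as periostin, thrombospondins, SPARC and the CCN proteins (Ctgf and Cyr61) signal to cells more than they bear load. In the heart most of these genes are expressed mainly by fibroblasts, with elastin and fibrillins also made by smooth muscle and valve cells.

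Values are FPKM, fragment counts normalized to transcript length and to the library's total, so that levels can be compared between genes. Judged by the step size of low values, the depth was about 12.5 and 11.95 M fragments in Cdk8Tg replicates 1 and 2 and about 14.15 M in each WT library, if each library was scaled by its own fragment total. Changes are differences of mean log2(FPKM + 1), Cdk8Tg less WT, with limma's SE, a scale that understates the change of genes with low FPKM. A gene was called where its Benjamini-Hochberg adjusted p over all 11888 tested rows was under 0.05. All 38 genes had a mean of at least 1 FPKM and were tested. Of these, 2 had a WT mean under 1 FPKM (Spp1 and Tnc), so Spp1 and Tnc passed through the level in Cdk8Tg. Cdk8 stood at 7309 and 8122 FPKM in Cdk8Tg against 7.89 and 9.86 in WT, as the labels say.

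The libraries of a group were not alike in these genes. Cdk8Tg replicate 2 held the highest value for 30 of the 38 genes and WT replicate 2 the lowest for 26. Cdk8Tg replicate 2 was above Cdk8Tg replicate 1 for 33 genes, and WT replicate 1 was above WT replicate 2 for 27. The matching shares of all tested rows were not counted, so these counts cannot be read as particular to the matrix genes. The same libraries also differed in atrial muscle genes. Myl7, the atrial myosin light chain, was at 8.51 and 52.7 FPKM in Cdk8Tg against 136 and 11.6 in WT. Sln, atrial sarcolipin, stood at 0.218, 9.93, 43.8 and 2.08 FPKM in that order, and both were thus highest in WT replicate 1. Myl4, another atrial myosin light chain, was instead highest in Cdk8Tg replicate 2 and lowest in WT replicate 2. It stood at 72.5, 281, 94.3 and 11.7 FPKM in that order, and Stard10, also on the atrial list, at 8.06, 5.53, 13.2 and 10.5 FPKM. Over the list of 7 atrial markers the summed level was 872, 2424, 686 and 238 FPKM, with Bmp10 listed at 0 in every library. Most of that sum was Nppa, atrial natriuretic peptide, which stressed ventricle also makes, at 780, 2072, 395 and 199 FPKM. Myl7, Myl4, Sln, Nppa and most of the matrix genes were higher in Cdk8Tg replicate 2 than in Cdk8Tg replicate 1. They were also higher in WT replicate 1 than in WT replicate 2. Stard10 was lower in Cdk8Tg replicate 2 than in Cdk8Tg replicate 1. The part of atrial or valve tissue in the matrix results was not tested. The mean was higher in Cdk8Tg for 34 of the 38 genes, against 66.3% of all tested rows. With Cdk8Tg replicate 2 and WT replicate 1 set aside, an alternative added once the values were known, Cdk8Tg was again higher for 34. That pair keeps WT replicate 2, the lowest library for 26 of the genes. The share of all tested rows for that pair was not counted, so no conclusion is drawn from it.

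The 38 listed genes leaned towards higher levels in Cdk8Tg, and few were lower. They were chosen with earlier results of these data known, and of 40 other tested noncollagen matrix genes 7 rose (17.5%). Of the 38 genes, 11 rose (28.9%) and 1 fell, against 16.9% and 7.98% of all tested rows. The rises were Fbn2, Cilp, Mfap4, Postn, Bgn, Vcan, Loxl1, Emilin1, Fbln2, Lum and Loxl2, and Thbs2 was the fall. A further 16 genes had an unadjusted limma p under 0.05 without being called. The matching share of all tested rows was not counted, so no conclusion is drawn from that number. The median log2 change of the 38 genes was 0.60, and that of all tested rows was 0.13. Both Cdk8Tg libraries lay above both WT libraries for 30 genes (78.9%), against 49.2% of all tested rows, and below them for 2, Ogn and Thbs2, against 21.1%. After median-of-ratios scaling, which moved the median of all tested rows from 0.13 to 0.00, 10 genes rose and 2 fell, against 7.96% and 11.7% of all tested rows, and the median of the 38 was 0.46. The whole set of 38 genes summed to 2278 and 3115 FPKM in Cdk8Tg and to 1885 and 1755 FPKM in WT, which was 0.508%, 0.707%, 0.369% and 0.345% of each library's FPKM.

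**Figure D1:**
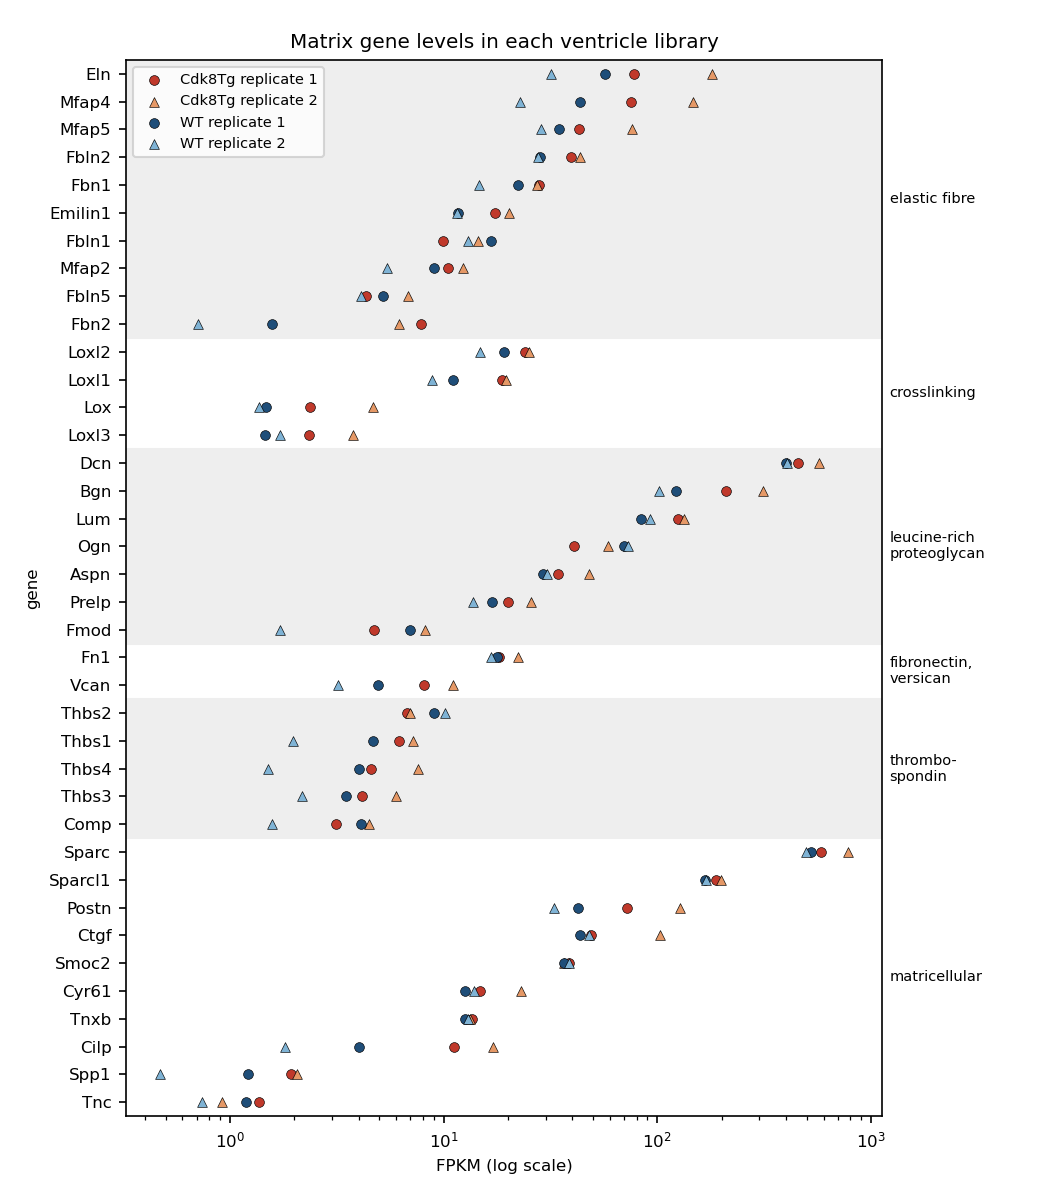
Level of each of the 38 genes (rows, grouped by role and ordered by mean) in FPKM on a log axis, with one point per library. The Cdk8Tg points lie to the right of both WT points for 30 genes, among them Bgn at 210 and 311 FPKM against 123 and 102, and to the left of both for Ogn and Thbs2.

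The call counts moved with single libraries. Leaving out WT replicate 2 left 1 rise, Fbn2, where 1.36% of all tested rows were called higher, and leaving out Cdk8Tg replicate 1 gave 21 rises and 0 falls, where 14.2% of all tested rows were called higher. Without Cdk8Tg replicate 2 there were 8 rises and 1 fall, where 6.01% of all tested rows were called higher. Setting WT replicate 1 aside gave 8 rises and 0 falls, where the share was 3.36%. These fits keep 1 residual degree of freedom and take the lone library's spread from the other group.

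**Figure D2:**
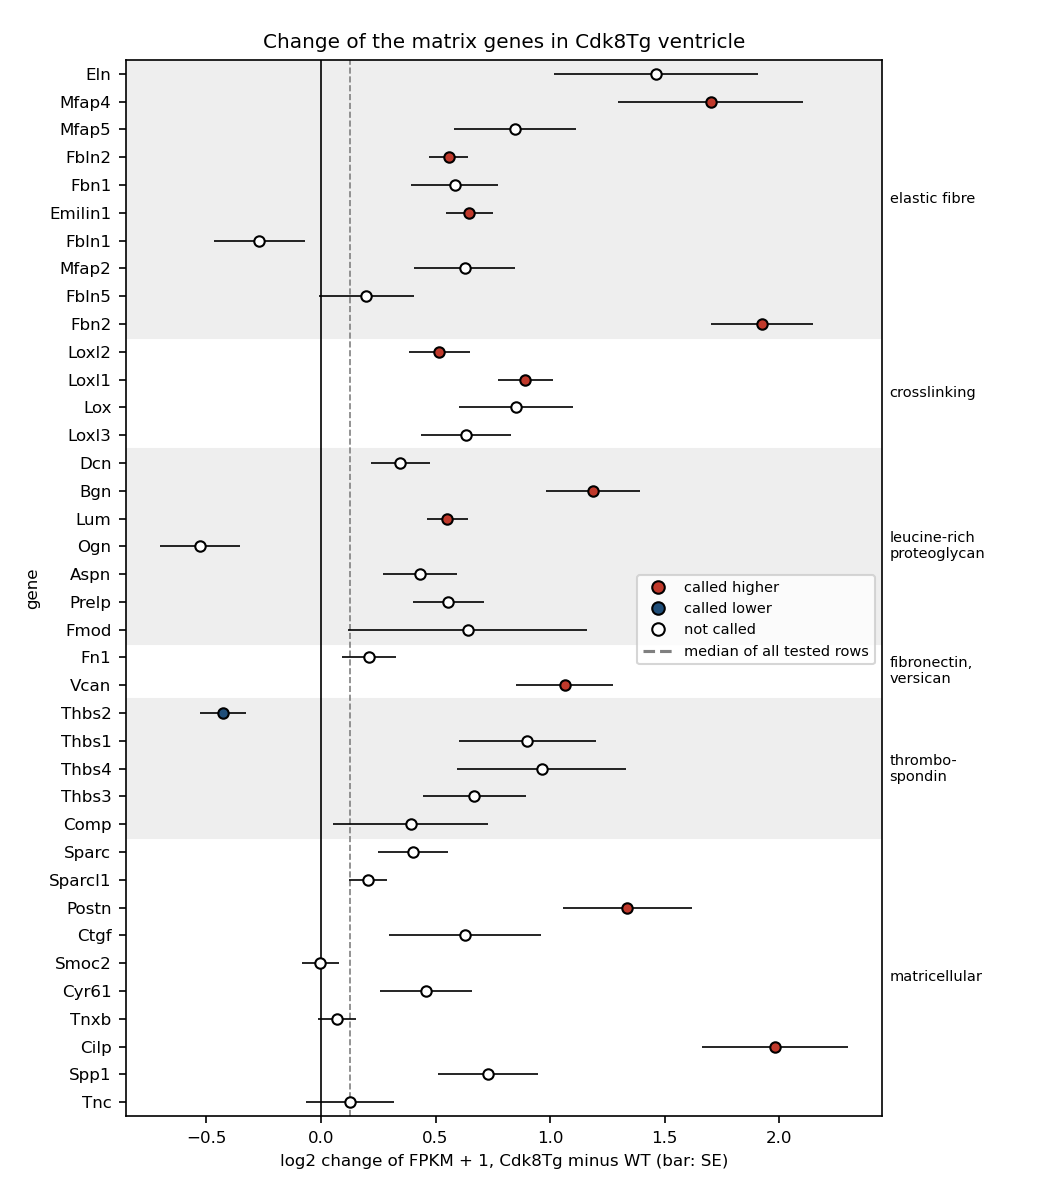
Log2 change of FPKM + 1 (Cdk8Tg minus WT) for each gene with its SE from limma as the bar; filled points passed an adjusted p of 0.05, and the dashed line is the median of all tested rows, 0.13. Fbn2 and Cilp lie farthest to the right at 1.92 and 1.98, and Thbs2 is the filled point on the left at -0.43.

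Promoter sequences are shown for Cilp, Postn and Bgn, which rose, and for Thbs2, which fell, because these genes carry the contrast within the set and have an entry in the RefSeq promoter table (GRCm38.p6, 250 bases before to 50 after the annotated start). Of the 38 genes, 22 had an entry, Cyr61 under its newer symbol Ccn1. For Postn, which has 2 entries, the one farther downstream is given. Capitals mark matches to TATAAA or TATATAA on either strand, and these motifs can overlap.
Cilp (chr9:65264930-65265229, + strand): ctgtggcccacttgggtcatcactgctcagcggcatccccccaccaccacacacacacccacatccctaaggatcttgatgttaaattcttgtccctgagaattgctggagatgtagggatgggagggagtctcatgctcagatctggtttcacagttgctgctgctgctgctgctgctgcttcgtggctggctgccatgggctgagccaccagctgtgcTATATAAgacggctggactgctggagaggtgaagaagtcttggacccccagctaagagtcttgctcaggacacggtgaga
Postn (chr3:54360857-54361156, + strand): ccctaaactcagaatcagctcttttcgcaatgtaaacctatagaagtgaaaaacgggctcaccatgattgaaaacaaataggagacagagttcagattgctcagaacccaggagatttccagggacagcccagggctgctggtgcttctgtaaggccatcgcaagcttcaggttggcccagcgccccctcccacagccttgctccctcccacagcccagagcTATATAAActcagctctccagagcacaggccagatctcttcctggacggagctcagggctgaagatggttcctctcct
Bgn (chrX:73483351-73483650, + strand): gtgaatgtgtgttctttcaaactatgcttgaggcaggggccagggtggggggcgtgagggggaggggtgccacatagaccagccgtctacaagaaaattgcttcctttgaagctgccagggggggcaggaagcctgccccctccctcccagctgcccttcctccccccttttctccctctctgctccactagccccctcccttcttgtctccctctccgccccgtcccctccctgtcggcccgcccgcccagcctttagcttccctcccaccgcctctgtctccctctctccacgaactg
Thbs2 (chr17:14694213-14694512, - strand): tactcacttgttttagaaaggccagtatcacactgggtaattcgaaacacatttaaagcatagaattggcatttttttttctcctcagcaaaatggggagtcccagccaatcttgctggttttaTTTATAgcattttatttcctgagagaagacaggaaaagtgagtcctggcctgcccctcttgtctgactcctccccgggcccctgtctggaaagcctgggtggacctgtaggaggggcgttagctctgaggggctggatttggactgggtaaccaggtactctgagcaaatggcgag

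The Cilp and Postn promoters each hold TATATAA, starting 30 and 28 bases before the annotated start, where TATA boxes usually lie. That of Bgn holds neither motif in this window, and that of Thbs2 holds TATAAA on the reverse strand, 126 bases before the start. TATATAA occurred in 3 of the 28 promoters of the listed genes (Cilp, Postn and Tnc) and in 3.24% of all 32851 promoters of the table. TATAAA occurred in 8 of 28 and in 13.6% of all. GGAATG, the core letters bound by TEAD factors, occurred in 4 of 28 (Cyr61, Mfap2, Ogn and Thbs4) and in 14.7% of all. The AP-1 motif TGANTCA occurred in 1 of 28 (Tnxb) and in 7.81% of all, and the CArG box in 0 of 28 and in 1.63% of all. These shares, counted on both strands, are descriptions of the 22 genes with an entry, with no test.

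Among the elastic fibre genes the rise was uneven, and the fibrillin made mainly during development changed most. Of 10 such genes 4 rose, against 16.9% of all tested rows, and the other 6 were not called. The median log2 change was 0.64, and that of all tested rows was 0.13. Fbn2, fibrillin-2, the fibrillin typical of embryonic microfibrils, stood at 7.82 and 6.19 FPKM in Cdk8Tg against 1.57 and 0.712 in WT. The groups lay far apart, with a 6.13-fold higher mean and a log2 change of 1.92 ± 0.22 (SE, limma adjusted p = 0.00752). Its WT values rested on about 246 and 111 fragments, and its call was kept when any 1 library was left out, with a log2 change of at least 1.63. Fbn1, fibrillin-1, the main fibrillin after birth, was at 27.9 and 27.3 FPKM in Cdk8Tg against 22.3 and 14.7 in WT, without overlap but short of a call (log2 change 0.58 ± 0.19, limma adjusted p = 0.0748). About 20.1% of its exonic bases are shared with a gene on the opposite strand. Fbn1 was called without WT replicate 1 (0.87, limma adjusted p = 0.0319).

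Mfap4, a microfibril-associated glycoprotein that binds elastin, was at 75.2 and 147 FPKM in Cdk8Tg against 43.7 and 22.8 in WT. The groups did not overlap, although the libraries differed 1.95-fold within Cdk8Tg and 1.91-fold within WT, and the mean was 3.34-fold higher (log2 change 1.70 ± 0.40, limma adjusted p = 0.0359). Emilin1, a glycoprotein at the interface of elastin and microfibrils, was at 17.3 and 20.2 FPKM in Cdk8Tg against 11.7 and 11.5 FPKM in WT, a log2 change of 0.65 ± 0.10 (limma adjusted p = 0.0142). Fbln2, fibulin-2, a basement membrane and elastic fibre linker, was at 39.6 and 43.5 FPKM against 28.2 and 27.5 FPKM, a log2 change of 0.56 ± 0.09 (limma adjusted p = 0.0134). For both Emilin1 and Fbln2 the WT libraries nearly coincided and the groups stood apart, while the Cdk8Tg libraries differed 1.17-fold and 1.10-fold. Without WT replicate 2 the log2 changes of Mfap4, Emilin1 and Fbln2 were 1.25, 0.64 and 0.54, with limma adjusted p of 0.143, 0.0869 and 0.0904. Without WT replicate 1 they were 2.15, 0.66 and 0.58 (0.0531, 0.0676 and 0.0671), and without Cdk8Tg replicate 2 Mfap4 was at 1.22 (0.0918).

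Eln, elastin itself, was at 78.0 and 181 FPKM in Cdk8Tg against 56.9 and 31.8 in WT. Its groups did not overlap and its mean was 2.92-fold higher, yet the spread within groups left it uncalled (log2 change 1.46 ± 0.45, limma adjusted p = 0.0652). Without Cdk8Tg replicate 1 it was called (2.06, limma adjusted p = 0.0143). Mfap5, another microfibril-associated glycoprotein, was at 43.0 and 75.9 FPKM in Cdk8Tg against 34.5 and 28.5 in WT (0.85 ± 0.27, limma adjusted p = 0.0708, and called at 1.25 without Cdk8Tg replicate 1, adjusted p = 0.00647). Mfap2, a further microfibril component, was at 10.5 and 12.4 FPKM against 9.00 and 5.42 FPKM (0.63 ± 0.22, limma adjusted p = 0.0908, and called at 0.95 without WT replicate 1, adjusted p = 0.0408). Fibulin-1 stood apart from the rest of the group in direction. Fbln1 was at 9.95 and 14.5 FPKM in Cdk8Tg against 16.6 and 13.0 in WT, with overlapping groups (-0.27 ± 0.20, limma adjusted p = 0.346). Fbln5, fibulin-5, which is needed for elastic fibre assembly, ranged from 4.09 to 6.81 FPKM with overlapping groups and no call.

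All 4 lysyl oxidase genes were higher in both Cdk8Tg libraries than in either WT library, as were 49.2% of all tested rows. Of these 4 genes 2 were called higher, against 16.9% of all tested rows. Loxl1, the family member tied most closely to elastic fibres, was at 18.8 and 19.5 FPKM in Cdk8Tg against 11.1 and 8.80 in WT. This was a 1.93-fold higher mean, with a log2 change of 0.89 ± 0.12 (limma adjusted p = 0.0107). Loxl2 was at 24.0 and 25.2 FPKM against 19.2 and 14.9 FPKM, a smaller change of 0.52 ± 0.13 (limma adjusted p = 0.0433). The value of Loxl2 is uncertain, since 46.2% of its 31-base stretches also occur in transcripts annotated to another gene. Lox itself, the founding crosslinker of the family, was much less abundant, at 2.38 and 4.65 FPKM in Cdk8Tg and 1.47 and 1.37 FPKM in WT (0.85 ± 0.25, limma adjusted p = 0.0595). Loxl3 was similar at 2.34 and 3.78 FPKM against 1.46 and 1.71 FPKM (0.63 ± 0.20, limma adjusted p = 0.0686). Without WT replicate 2 Loxl1 was at 0.74 and Loxl2 at 0.34 (limma adjusted p = 0.0529 and 0.155). Without Cdk8Tg replicate 1 Loxl2 was at 0.55 (0.0754), while Lox at 1.22 and Loxl3 at 0.89 were called (0.00748 and 0.0186). Without Cdk8Tg replicate 2 Loxl2 was at 0.48 (0.126), and it was not called after median-of-ratios scaling (0.37, 0.0944), quantile normalization (0.42, 0.0890) or without a variance trend (0.0559).

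The small leucine-rich proteoglycans differed in direction. Of 7 such genes 2 rose (28.6%, against 16.9% of all tested rows), Bgn and Lum. The other 5 were not called, and the median log2 change was 0.55. Bgn, biglycan, which binds collagen and growth factors of the TGF-beta family, was at 210 and 311 FPKM in Cdk8Tg against 123 and 102 in WT. Every Cdk8Tg value exceeded every WT value by a wide margin, and the mean was 2.32-fold higher (log2 change 1.19 ± 0.20, limma adjusted p = 0.0168). Lum, lumican, a regulator of collagen fibril width, was at 125 and 134 FPKM against 84.3 and 92.2 FPKM (0.55 ± 0.09, limma adjusted p = 0.0150). Dcn, decorin, the most abundant proteoglycan of the set, was at 456 and 574 FPKM in Cdk8Tg against 400 and 404 in WT. The WT libraries coincided and lay below both Cdk8Tg libraries, but the change of 0.35 ± 0.13 was not called (limma adjusted p = 0.104). Dcn was called after quantile normalization (0.66, limma adjusted p = 0.0421) but not after median-of-ratios scaling (0.20, 0.304). Without Cdk8Tg replicate 1 Dcn was called at 0.51 (limma adjusted p = 0.0158). Without WT replicate 1 Bgn was at 1.32 and Lum at 0.49 (0.0600 and 0.0894), and without WT replicate 2 they were at 1.05 and 0.61 (0.0993 and 0.0793).

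Ogn, osteoglycin (mimecan), went the other way. It was at 41.0 and 59.0 FPKM in Cdk8Tg against 69.8 and 72.9 in WT, below WT in both libraries. Its change of -0.53 ± 0.17 was not called (limma adjusted p = 0.0775), but was called after median-of-ratios scaling (-0.67, limma adjusted p = 0.0435) and without Cdk8Tg replicate 2 (-0.78, limma adjusted p = 0.0159). Aspn, asporin, was at 34.3 and 48.0 FPKM against 29.1 and 30.6 FPKM (0.43 ± 0.16, limma adjusted p = 0.105). Prelp, a proteoglycan that anchors basement membranes to connective tissue, was at 20.1 and 25.8 FPKM against 16.8 and 13.7 FPKM, just outside the threshold (0.56 ± 0.15, limma adjusted p = 0.0519). Prelp was called at a minimum mean of 5 FPKM and with robust variance (limma adjusted p = 0.0424 and 0.0443), but not after median-of-ratios scaling (0.102). Without Cdk8Tg replicate 1 both Aspn and Prelp were called, at 0.67 and 0.73 (limma adjusted p = 0.0134 and 0.0281). Fmod, fibromodulin, ranged from 1.71 to 8.16 FPKM with overlapping groups. Its WT libraries differed 4.08-fold from each other, more than for any other gene of the set, and without WT replicate 2 its change turned to -0.14.

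Versican rose, and fibronectin differed little between the groups. Vcan, the large chondroitin sulphate proteoglycan of developing and injured heart, was at 8.08 and 11.1 FPKM in Cdk8Tg against 4.94 and 3.22 in WT. The mean was 2.35-fold higher and the groups did not overlap (log2 change 1.06 ± 0.21, limma adjusted p = 0.0237). The call was lost without WT replicate 2 (0.82, limma adjusted p = 0.0997) and without Cdk8Tg replicate 2 (0.86, limma adjusted p = 0.0733). Fn1, fibronectin, the main adhesive glycoprotein of interstitial matrix, was at 18.1 and 22.3 FPKM in Cdk8Tg against 17.9 and 16.7 in WT (0.21 ± 0.12, limma adjusted p = 0.238). Cdk8Tg replicate 1 and WT replicate 1 were almost equal in Fn1.

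The thrombospondin family split by member. Thbs2, a thrombospondin that inhibits vessel growth and takes part in matrix assembly, was the 1 gene of the 38 that fell. It was at 6.75 and 7.0 FPKM in Cdk8Tg against 9.01 and 10.2 in WT, a 1.40-fold lower mean (log2 change -0.43 ± 0.10, limma adjusted p = 0.0338). The groups did not overlap, but the call was lost when any 1 library was left out, with log2 changes from -0.51 to -0.35 and limma adjusted p from 0.0801 to 0.170, and on the equal-sum scale (-0.25, 0.0902). Thbs1, an activator of latent TGF-beta, Thbs3 and Thbs4, a thrombospondin of stressed muscle, all lay higher in both Cdk8Tg libraries than in WT, between 1.51 and 7.62 FPKM, without a call. Their log2 changes were 0.90, 0.67 and 0.96, and their limma adjusted p 0.0798, 0.0801 and 0.109. Thbs1 was called without WT replicate 1 (1.36, limma adjusted p = 0.0262) and Thbs3 without Cdk8Tg replicate 1 (0.89, limma adjusted p = 0.0493). Comp, the cartilage member of the family, ranged from 1.57 to 4.47 FPKM with overlapping groups.

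Of the 10 other matricellular genes, 2 rose (20.0%), Cilp and Postn, a share close to the 16.9% of all tested rows. Cilp, cartilage intermediate layer protein, a secreted protein of fibroblasts in the injured heart, was at 11.2 and 17.0 FPKM in Cdk8Tg against 4.04 and 1.81 in WT. Its mean was 4.83-fold higher, second in the set only to Fbn2 (log2 change 1.98 ± 0.32, limma adjusted p = 0.0148). The WT values rested on about 237 and 106 fragments, and the call was lost without WT replicate 2 (1.56, limma adjusted p = 0.0568). Postn, periostin, known as a marker of activated fibroblasts, was at 71.9 and 128 FPKM in Cdk8Tg against 42.6 and 32.7 in WT (1.34 ± 0.28, limma adjusted p = 0.0266). Without WT replicate 1 and without WT replicate 2 Postn was at 1.52 and 1.15 (limma adjusted p = 0.0729 and 0.133).

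Several other matricellular genes were measured at or above 10 FPKM without a call. Sparc, a collagen-binding glycoprotein and the most abundant gene of the 38, was at 584 and 778 FPKM in Cdk8Tg against 523 and 496 in WT (0.40 ± 0.15, limma adjusted p = 0.106). Sparc was called after quantile normalization (0.73, limma adjusted p = 0.0389) but not after median-of-ratios scaling (0.26, 0.264). Sparcl1, its relative, was at 188 and 200 FPKM against 167 and 170 FPKM (0.21 ± 0.08, limma adjusted p = 0.117). Both lay above WT in each Cdk8Tg library, by a small margin except for Sparc in Cdk8Tg replicate 2, which was 1.49-fold above WT replicate 1. Smoc2, a calcium-binding relative of SPARC, was at 38.6 and 36.6 FPKM in Cdk8Tg and 36.6 and 38.6 FPKM in WT (-0.00 ± 0.08, limma adjusted p = 0.990). Tnxb, tenascin-X, was also within a narrow range, at 13.6 and 13.3 FPKM against 12.5 and 13.0 FPKM (0.07 ± 0.08, limma adjusted p = 0.540). The level of Tnxb is uncertain, since 9.70% of its 31-base stretches occur in other annotated genes. Tnc, tenascin-C, which embryonic and injured heart makes, was near the filter in every library, at 0.738 to 1.37 FPKM with overlapping groups. Spp1, osteopontin, was also near the filter in WT, at 1.21 and 0.473 FPKM (about 26 and 10 fragments), against 1.93 and 2.05 FPKM in Cdk8Tg (0.73 ± 0.22, limma adjusted p = 0.0623), and 18.8% of its exonic bases are shared with another gene on the same strand.

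The CCN genes, common targets of the YAP and TGF-beta pathways, were high in a single library. Ctgf was at 48.9 FPKM in Cdk8Tg replicate 1, close to the WT values of 43.6 and 47.8 FPKM, and at 103 FPKM in Cdk8Tg replicate 2. Cyr61 followed the same pattern at 14.9 and 23.1 FPKM in Cdk8Tg and 12.7 and 13.8 FPKM in WT. Neither was called (0.63 ± 0.33 and 0.46 ± 0.20, limma adjusted p = 0.207 and 0.147). Part of the exonic bases is shared with a gene on the opposite strand for Ctgf (23.2%), Loxl3 (11.6%), Prelp (9.68%) and Thbs3 (6.59%), and reads of such partners may not be told apart. Without Cdk8Tg replicate 1 both were, at 1.16 and 0.76 (limma adjusted p = 0.00405 and 0.0137), and without that replicate Sparc was called as well, at 0.61 (limma adjusted p = 0.0115).

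Ratios between genes of the same library do not depend on how the libraries were scaled, and several separated the groups (2 against 2 libraries cannot reach an exact two-sided p under 0.333, so no test is given). The ratio of Fbn2 to Fbn1 was 0.280 and 0.226 in Cdk8Tg and 0.0705 and 0.0485 in WT, so that Fbn2 was a larger part of the fibrillin mRNA in Cdk8Tg. The ratio of Bgn to Dcn was 0.460 and 0.543 in Cdk8Tg and 0.307 and 0.252 in WT. Fbln1 to Fbln5 stood at 2.30 and 2.13 against 3.20 and 3.17. Ogn to Aspn, a pair chosen after its values were seen, stood at 1.19 and 1.23 against 2.40 and 2.38, with libraries of a group almost equal. A further 2 pairs chosen after their values were seen did not overlap either, Eln to Fbn1 at 2.79 and 6.62 against 2.55 and 2.16, and Thbs2 to Thbs1 at 1.10 and 0.973 against 1.94 and 5.15. The other 3 pairs overlapped. Thbs1 to Thbs4 was 1.35 and 0.944 against 1.16 and 1.31, and Loxl1 to Lox was 7.90 and 4.20 against 7.50 and 6.40, without a gap between the groups. Sparcl1 to Sparc was 0.323 and 0.257 in Cdk8Tg and 0.318 and 0.342 in WT, with Cdk8Tg replicate 1 between the WT libraries. Sparc and Dcn together made up 45.7% and 43.4% of the FPKM of the 38 genes in Cdk8Tg and 49.0% and 51.3% in WT, while Bgn made up 9.20% and 9.99% against 6.51% and 5.79%.

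**Figure D3:**
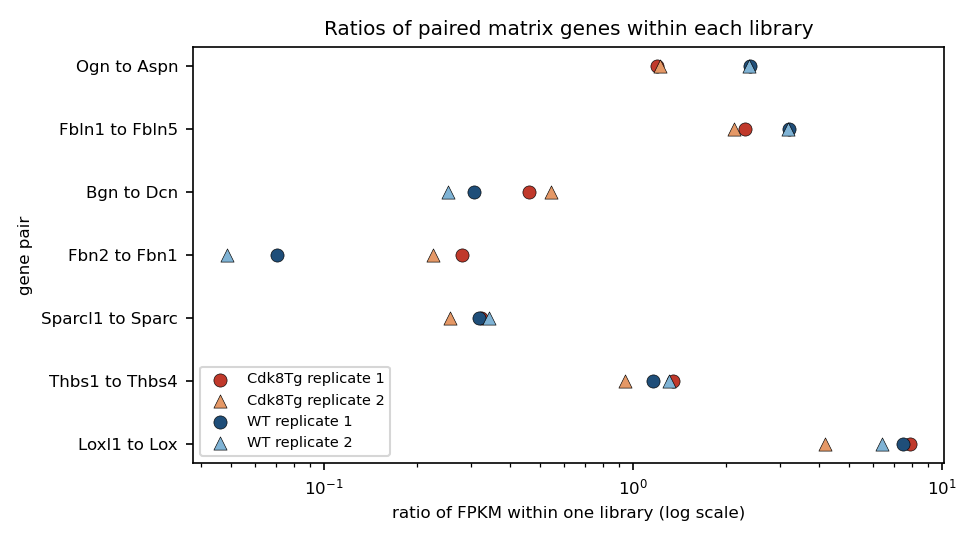
Ratio of the FPKM of paired genes within each library on a log axis, one point per library. Ogn to Aspn, Fbln1 to Fbln5, Bgn to Dcn and Fbn2 to Fbn1 separate the groups, with Fbn2 to Fbn1 at 0.226 or more in Cdk8Tg and at 0.0705 or less in WT, while the other 3 pairs shown overlap.

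Several of the genes are neighbours in the genome (GRCm38). Of the pairs given here, only Aspn and Ogn, neither of them called, had log2 changes of opposite sign. On chromosome 13, Aspn (49544443 to 49567565) and Ogn (49608046 to 49624501) lie 40480 bases apart on the same strand with 1 protein-coding gene between them, and their log2 changes were 0.43 and -0.53. The authors' deposited table gives both a single joint locus. On chromosome 17, Smoc2 (14279506 to 14404790) and Thbs2 (14665500 to 14694235) lie 260709 bases apart with no protein-coding gene between them, and their log2 changes were -0.00 and -0.43. Dcn and Lum on chromosome 10, 46984 bases apart, were at 0.35 and 0.55, and Prelp and Fmod on chromosome 1, 115839 bases apart, at 0.56 and 0.64. Sparcl1 and Spp1 on chromosome 5, 321384 bases apart, were at 0.21 and 0.73. Of the genes that rose, Fbn2 lies on chromosome 18 at 58008623 to 58210487, Cilp on chromosome 9 at 65265180 to 65280605, Bgn on chromosome X at 73483602 to 73495933, Postn on chromosome 3 at 54361109 to 54391037, Mfap4 on chromosome 11 at 61485431 to 61488900 and Vcan on chromosome 13 at 89655312 to 89742509.

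The authors' deposited table, a Cuffdiff comparison of the same groups, lists more of these genes as changed. At a q under 0.05 it has 15 of the 38 higher in Cdk8Tg and 1 lower, against 5.53% and 8.43% of the 12393 genes it tested. It shares 8 of the 11 rises given above and the fall of Thbs2. Fbln2, Lum and Loxl2 were not called there (q = 0.106, 0.144 and 0.161 in the authors' deposited table). Conversely, Eln, Mfap5, Lox, Thbs1, Thbs3, Thbs4 and Ctgf were called only in the authors' deposited table. Eln is given there at 56.1 (WT) and 146 (Cdk8Tg) FPKM with q = 8.6e-04, and Ctgf at 58.1 and 86.1 FPKM with q = 0.0165. These FPKM are on another scale than those above. Dcn, for example, is given at 510 (WT) and 583 (Cdk8Tg) FPKM, against means of 402 and 515 here. The fold of Cdk8Tg over WT was lower there for each of the 38 genes, at 1.15 against 1.28 for Dcn and 2.61 against 2.92 for Eln. Both analyses rest on the same 4 libraries and are not independent of each other.

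Other genes of the matrix pathway were taken from lists outside the 38, to be read against the 16.9% and 7.98% of all tested rows called higher and lower. Of 22 tested genes for fibrillar and associated collagens and their maturation, 10 rose (45.5%) and the other 12 were not called, with a median log2 change of 0.50. Col8a1, a short-chain collagen of vessels and stressed heart, was at 24.5 and 39.6 FPKM in Cdk8Tg against 8.56 and 9.54 in WT (1.68 ± 0.22, limma adjusted p = 0.00991). Col15a1, Col6a2 and Col6a3 rose by 0.77, 0.64 and 0.59. Of 40 tested other noncollagen matrix genes, 7 rose (17.5%) and 2 fell, with a median of 0.36, and the share that rose was thus close to that of all tested rows. Among these, Mfge8, a milk fat globule protein that binds integrins, rose by 0.95, the adhesion protein gene Svep1 by 0.91 and Pcolce, an enhancer of procollagen cleavage, by 0.82. Podn, a further leucine-rich proteoglycan, was the fall with the smallest p, at 4.20 and 5.51 FPKM in Cdk8Tg against 9.01 and 9.78 in WT (-0.84 ± 0.13, limma adjusted p = 0.0149). Leaving out WT replicate 2 ended the calls of the 8 genes named here, with limma adjusted p from 0.0549 to 0.0997. The collagen list had 15 and 4 rises when Cdk8Tg replicate 1 or 2 was left out, and 3 and 0 when WT replicate 1 or 2 was (9 at an unadjusted limma p under 0.05 in the last). In the same order the other noncollagen list had 16, 5, 0 and 0 rises, with 13 and 6 at an unadjusted limma p under 0.05 in the last pair. Without WT replicate 1 the limma adjusted p of Col8a1, Col6a2, Svep1, Mfge8, Podn and Pcolce were 0.0524, 0.0711, 0.0573, 0.0508, 0.0621 and 0.0543, and without Cdk8Tg replicate 2 that of Col6a3 was 0.0609.

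Lists of genes that sense or shape the matrix followed. Of 20 tested matrix receptors, 3 rose (15.0%) and 1 fell, with a median of 0.18. Sdc4, the proteoglycan syndecan-4 at cell adhesions, was at 22.6 and 27.8 FPKM in Cdk8Tg against 9.99 and 8.11 in WT (1.38 ± 0.14, limma adjusted p = 0.00618), and it was called whichever library was left out. Sdc2, another syndecan, rose by 0.82 and the collagen receptor Ddr1 by 0.74, whereas Cd36, a thrombospondin receptor and fatty acid transporter, fell by 0.55. Of 20 genes of the TGF-beta axis, 3 rose (15.0%) and 1 fell, with a median of 0.12, close to that of all tested rows. Tgfb2 was at 5.32 and 8.53 FPKM in Cdk8Tg against 2.49 and 1.83 FPKM in WT (1.30 ± 0.22, limma adjusted p = 0.0167), Tgfb3 rose by 1.11 and the decoy receptor Bambi by 2.90, while the co-receptor Tgfbr3 fell by 0.60. Of 15 genes of the YAP and TEAD axis, 2 rose (13.3%), Ankrd1 by 2.22 and Yap1 by 0.37, with a median of 0.09. Of 14 tested genes for glycosaminoglycan synthesis, 1 rose (7.14%), the chondroitin polymerising factor Chpf by 0.66, with a median of 0.14. Without WT replicate 2 the limma adjusted p of Sdc2, Ddr1, Cd36, Tgfb2, Tgfb3, Tgfbr3, Ankrd1, Yap1 and Chpf lay from 0.0503 to 0.132. Without WT replicate 1 those of Ddr1, Cd36, Tgfb2, Chpf and Yap1 were 0.0507, 0.0794, 0.0545, 0.0662 and 0.150, and without Cdk8Tg replicate 2 those of Chpf, Tgfbr3 and Yap1 were 0.0659, 0.0927 and 0.114. After median-of-ratios scaling Yap1 was not called (0.23, limma adjusted p = 0.119), and after quantile normalization neither Yap1 (0.29, 0.0764) nor Cd36 (-0.28, 0.119) was.

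Markers of fibroblasts, the main makers of this matrix, were measured beside these results. In bulk tissue, more cells of a type and more RNA per cell cannot be told apart. Over 12 fibroblast markers (Mfap5 among them) 5 rose (41.7%, against 16.9% of all tested rows), with a median log2 change of 0.46. Their sum was 1129 and 1432 FPKM in Cdk8Tg and 1059 and 982 FPKM in WT. The rises were Pdgfra by 0.47 and Tcf21 by 0.59, both of fibroblast identity, and Col1a1, Col1a2 and Pcolce, of collagen and its processing. The other markers were not called, with log2 changes of 0.46 for Col3a1, 0.12 for Lamc1, 0.09 for Dpt, 0.07 for Ddr2, -0.01 for Gsn and -0.30 for Thy1, beside Mfap5 given above. With a library left out the list had from 0 rises (without WT replicate 2, where 5 had an unadjusted limma p under 0.05) to 6 rises (without Cdk8Tg replicate 1), with 1 without Cdk8Tg replicate 2 and 2 without WT replicate 1, and median-of-ratios scaling gave 3. Pdgfra was at 15.0 and 16.4 FPKM in Cdk8Tg against 10.4 and 11.8 in WT, and after median-of-ratios scaling neither Pdgfra (0.33) nor Tcf21 (0.45) was called (limma adjusted p = 0.0795 and 0.0603). Without WT replicate 2 they were not called either (0.55 and 0.42, limma adjusted p = 0.0897 and 0.126), nor without Cdk8Tg replicate 2 (0.40 and 0.54, 0.103 for both). Without WT replicate 1 Pdgfra was at 0.38 (0.129), and without Cdk8Tg replicate 1 Tcf21 was at 0.63 (0.0538). Per unit of Pdgfra, ratios chosen after the values were seen, Dcn stood at 30.4 and 34.9 in Cdk8Tg and at 38.5 and 34.1 in WT, and Lum at 8.36 and 8.15 against 8.12 and 7.78. Bgn stood at 14.0 and 18.9 against 11.8 and 8.58, Cilp at 0.750 and 1.04 against 0.389 and 0.153, and Fbn2 at 0.522 and 0.376 against 0.151 and 0.0601. Postn, Mfap4, Vcan and Loxl1 per unit of Pdgfra also lay higher in both Cdk8Tg libraries. Eln overlapped, at 5.20 and 11.0 against 5.47 and 2.68, as did Col1a2, at 7.13 and 9.04 against 7.46 and 5.52. The share of the matrix changes that goes with the fibroblast markers was not tested.

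Marker lists of other cell types gave mixed counts, to be read against the 16.9% and 7.98% of all tested rows called higher and lower. Of 12 markers of smooth muscle and pericytes, 1 rose (Cnn1) and 1 fell (Smtn), and their sum was 1563 and 2046 FPKM in Cdk8Tg and 1448 and 1430 FPKM in WT. Of 6 myofibroblast markers, 5 were tested and 3 rose, Cnn1, Myl9 and Postn, which is itself one of the 38. Acta2, smooth muscle actin, was at 317 and 513 FPKM against 266 and 268 FPKM and was not called (0.59, limma adjusted p = 0.106). No endothelial marker of 10 was called, with summed levels from 327 to 375 FPKM. Of 9 tested macrophage markers 4 fell, C1qa, C1qb, Csf1r and Mrc1, with sums of 177 and 227 FPKM in Cdk8Tg and 286 and 279 FPKM in WT. Falls on the macrophage list numbered 3 and 7 without Cdk8Tg replicates 1 and 2, and 0 without either WT library, where 4 had an unadjusted limma p under 0.05. Myl2, the ventricular myosin light chain, was abundant in every library, between 10760 and 15873 FPKM. Of 8 ventricular cardiomyocyte markers, 1 rose (Irx4) and 4 fell (Myh6, Myl3, Ryr2 and Tnnt2), with a median log2 change of -0.55. Their sum was 35844 and 34552 FPKM in Cdk8Tg against 49253 and 47033 in WT, lower where the matrix genes were higher. The falls numbered 0 without either WT library, where 1 had an unadjusted limma p under 0.05. The part of these lower cardiomyocyte values in the matrix results was not tested.

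**Figure D4:**
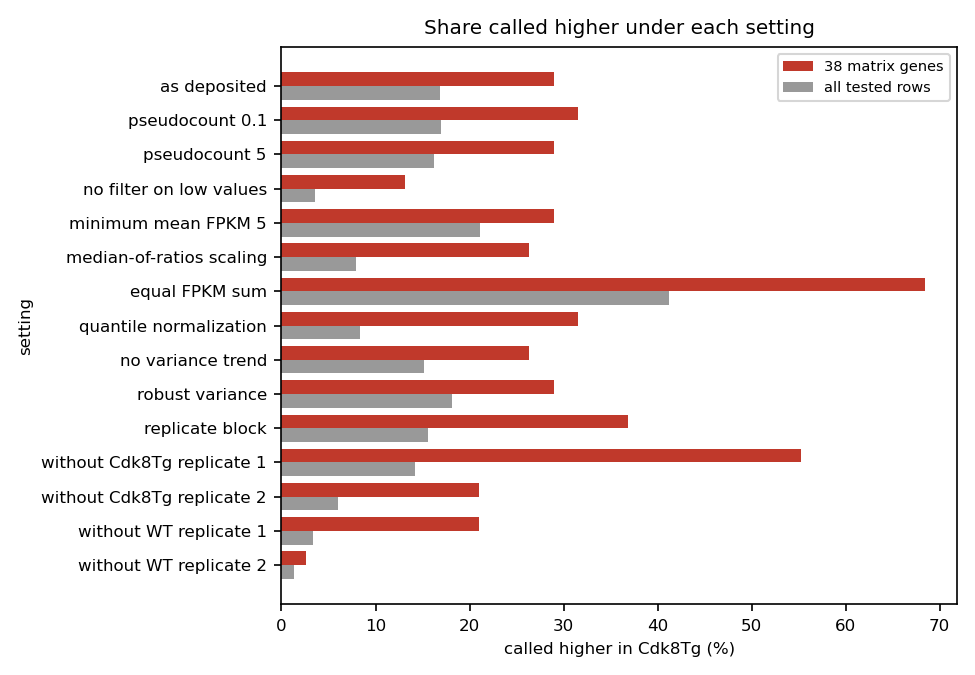
Share of the 38 genes (red) and of all tested rows (grey) called higher in Cdk8Tg by limma under each processing setting, as bars in percent; genes that a setting does not test count as not called. As deposited the shares were 28.9% and 16.9%, without a filter on low values 13.2% and 3.57%, on the equal-sum scale 68.4% and 41.2%, and without WT replicate 2 they were 2.63% and 1.36%.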

How the data were processed

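RNA from 4 ventricle libraries was sequenced, 2 per group, with groups and replicate numbers taken from the sample titles. The authors used TopHat 1.0.0, the mm10 build, Cufflinks and Cuffdiff, per the submitters' processing notes. The sources used here name no version of the latter tools, no annotation and no strandedness option. The deposited FPKM table holds 23847 rows, and its scaling between libraries is not stated. The authors' deposited Cuffdiff table gives a p-value and q-value per gene. Because no counts were used, log2(FPKM + 1) was modelled with limma 3.58.1 (R 4.3.3), moderating variances along a trend, with 2 residual degrees of freedom and no covariate, over 11888 rows with a mean of at least 1 FPKM. The routine was tested on simulated data. Coordinates, exon overlaps and 31-base stretches come from GENCODE M21 (GRCm38), where Ctgf and Cyr61 are Ccn2 and Ccn1. Depth was estimated from transcripts over 800 bases.

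The 38 genes and the lists were chosen with earlier results of these data known. Values per library are given for called genes and for those with a group mean of at least 10 FPKM, and for other lists up to 4 called genes with the smallest p; further genes were named after their values were seen. Alternatives covered pseudocounts, filters, scaling, variance models, a replicate block, left-out libraries and the authors' calls.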

Additional observations from a re-analysis of the deposited data

How the results depend on the processing

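With the deposited values 11 of the 38 genes were called higher and 1 lower. Rises numbered 10 to 15 with other pseudocounts, quantile normalization, a stricter filter (5 FPKM), median-of-ratios scaling, other variance models, the replicate block and in the authors' calls. Rises numbered 5 with no filter on low values and 26 on the equal-sum scale, and from 1 to 21 when a library was left out. The count of falls was 0 with no filter and on the equal-sum scale, 2 with median-of-ratios scaling and 2 with the replicate block, and from 0 to 1 when a library was left out. At an unadjusted limma p under 0.05, 1 gene was lower with no filter, 0 on the equal-sum scale and 1 to 3 with a library left out, and the authors' table called 1. The labels do not say whether libraries of equal number share a litter or batch. The correlation of same-number deviations was -0.03 across 11888 genes, which are not independent replicates. That value rests on 1 difference per group and cannot show whether the samples are paired. The replicate block gave 14 rises, adding Fbn1, Lox and Loxl3, and the fall of Ogn. Some uncalled changes turned sign. With a library left out, Fbln5 ranged from -0.078 to 0.48, Fmod from -0.14 to 1.42, Comp from -0.10 to 0.89, Tnc from -0.041 to 0.30 and Smoc2 from -0.039 to 0.036. Quantile normalization gave -0.029 for Tnc and -0.046 for Tnxb, median-of-ratios scaling -0.067 for Tnxb, and the equal-sum scale 0.19 for Smoc2. The cause was not tested. With no filter 17947 rows were tested and Mfap4, Loxl2, Bgn, Vcan, Thbs2, Postn and Cilp lost their calls, as did Col8a1, Col6a2, Col6a3, Mfge8, Podn, Pcolce, Cd36, Tgfb2, Tgfbr3, Ankrd1, Yap1, Chpf, Pdgfra and Tcf21 among the other lists. Fbn2 was not tested at a minimum of 5 FPKM. Robust variance ended the calls of Mfap4 and Postn (limma adjusted p = 0.116 and 0.0513). Estimates for Spp1, at 10 fragments in 1 library, are limited by depth.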

Other observations

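Markers of tendon, cartilage and valve were low in every library, with a summed level over 8 genes of 7.82 and 12.1 FPKM in Cdk8Tg and 6.48 and 2.63 FPKM in WT. Of the 2 that were tested 1 rose, Scx (scleraxis), a transcription factor of tendon and of matrix-making fibroblasts. Scx was at 4.60 and 6.54 FPKM in Cdk8Tg against 1.91 and 1.56 in WT, a log2 change of 1.25 ± 0.17 (SE, limma adjusted p = 0.0109). The call was lost without WT replicate 2 (1.16, limma adjusted p = 0.0723) and with no filter on low values (0.0511). Chad, chondroadherin, was at 1.22 and 2.67 FPKM in Cdk8Tg against 2.35 and 0.266 in WT, the same order of libraries as Fmod and Comp among the matrix genes. The 8 genes of the surface layer of the heart (epicardium and mesothelium) summed to 13.0 and 13.5 FPKM in Cdk8Tg against 15.2 and 7.71 in WT. Upk3b, Msln, Upk1b, Krt19, Krt8 and Aldh1a2 were lowest in WT replicate 2, at 0.281, 0.405, 0, 0.164, 0.0803 and 3.26 FPKM. The other genes of the list, Wt1 and Tbx18, were not. Wt1 was at 1.34 and 1.38 FPKM in Cdk8Tg against 1.80 and 1.75 in WT, and Tbx18 at 2.08 and 2.11 against 1.37 and 1.77.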
